A study of Homo sapiens with 48 samples.

Results

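The 10 genes described here are transcriptional outputs and feedback regulators of the RAS-ERK pathway: DUSP4, DUSP5, DUSP6, SPRY2, SPRY4, SPRED1, SPRED2, ETV4, ETV5 and PHLDA1. They were chosen by name from the count table of the series, which holds 19847 gene rows, and all 10 were found and passed the count filter that left 9991 genes for testing. The RNA came from IMR90 ER:RAS, human lung fibroblasts that carry a fusion of oncogenic RAS G12V with the ligand-binding domain of the oestrogen receptor. The fusion is switched on by 4-hydroxytamoxifen (4OHT), so that treated cells undergo RAS-induced senescence, and DMSO is the vehicle. Cells were given 4OHT or DMSO for 6 days, transfected with an siRNA, moved to medium with 0.5% FBS and collected 48 h later.

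Crossing the 2 treatments with the siRNAs gave 6 groups of 8 libraries each, 48 in all. Within each treatment, siNT is the non-targeting control (siNT1 and siNT2), siSF3B1 targets SF3B1 (siSF3B1-13 and siSF3B1-16), a core component of the U2 snRNP that recognises branch points, and siRBM39 targets RBM39 (siRBM39-06 and siRBM39-08), a U2AF-related splicing factor. Each siRNA has 4 replicates per treatment. All groups, including the DMSO siNT controls, carry the ER:RAS fusion, and no library of cells without it, or of untransfected cells, was compared here. The study's methods describe replicates of its cell work in general as independent experiments, but the labels do not say that these libraries are separate cultures. The p-values thus measure the spread between these libraries, which may be technical. Each group of 8 pools the libraries of 2 siRNAs, and the main tests treat these as like replicates.

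In the ERK pathway, RAS recruits RAF, RAF activates MEK and MEK activates ERK, which phosphorylates transcription factors in the nucleus. Part of the transcribed response acts back on the pathway: DUSP6 and its nuclear relatives DUSP4 and DUSP5 are phosphatases that remove the activating phosphates from ERK or hold it in the nucleus, Sprouty proteins (SPRY2, SPRY4) interfere with signalling between receptors and RAF, and the SPRED proteins bring the RAS inactivator neurofibromin to the membrane. ETV4 and ETV5 are ETS-family transcription factors of the PEA3 group that transmit the signal to further genes, and PHLDA1 is a pleckstrin-homology-like protein induced by growth factors. In cells expressing oncogenic RAS these genes are widely used as a readout of pathway output.

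Library totals ranged from 31467221 to 52734636 counts. SF3B1 had a median of 362 CPM (counts scaled to library size with the TMM method) in DMSO siNT and 327 CPM in 4OHT siNT, and each siSF3B1 reduced its median to between 7.88% and 9.33% of that value. RBM39 had medians of 172 and 120.4 CPM, and each siRBM39 reduced its median to between 12.2% and 16.7%. The library 4OHT siRBM39-08 replicate 4 stood apart from its group, with a root mean square log2 difference from the group median of 0.718 over all genes tested against at most 0.384 for any other library, and the main results of its group are therefore also given without it. All 6 fibroblast markers were present, with a summed level of 44097 to 50992 CPM in DMSO siNT and 7950 to 8800 CPM in 4OHT siNT. The 4 epithelial markers summed to 3.63 to 6.15 CPM in 4OHT siNT and 3.36 to 8.47 CPM in 4OHT siRBM39 apart from the library named above, where they reached 59.3 CPM. The 2 endothelial markers found of 3 summed to at most 7.98 CPM and the 3 blood markers to at most 0.532 CPM. Their part in the results was not tested, and in bulk RNA fewer cells of a type and less RNA per cell cannot be told apart.

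In GRCh37 coordinates the genes lie at chr10:112257665-112271291 (DUSP5), chr12:89741012-89746278 (DUSP6), chr13:80910111-80915261 (SPRY2), chr5:141689992-141706020 (SPRY4), chr15:38545037-38649450 (SPRED1), chr2:65537985-65659771 (SPRED2), chr17:41605212-41656988 (ETV4), chr3:185764103-185828107 (ETV5) and chr12:76419227-76425556 (PHLDA1). Antisense genes overlap or adjoin SPRY4, ETV5 and PHLDA1, and a readthrough transcript joins POC1B with DUSP6. Use of strand in the counting is not given in the sources used here, so reads of these partners cannot be told apart from those of the members.

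The first comparison asked how far activation of RAS raised these genes in cells with siNT. Of the 10 genes, 9 were higher in 4OHT than in DMSO (edgeR quasi-likelihood test, Benjamini-Hochberg adjusted p under 0.05), against a background of 39% of all genes tested that were higher. ETV5 did not pass the test. The 8 libraries against 8 were without overlap for the same 9 genes (background 35.8%), and 7 genes were at least 2-fold higher (background 7.61%). The median log2 fold change of the 10 genes was 1.89, and that of all genes tested was -0.00.

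DUSP4 and DUSP6 had the largest log2 fold changes of the 10 genes. DUSP4, a nuclear MAPK phosphatase, lay between 6.98 and 9.48 CPM in DMSO siNT (median 7.99) and between 132 and 150.2 CPM in 4OHT siNT (median 144). Every 4OHT library was far above every DMSO library. The fitted log2 fold change was 4.17 ± 0.14 (SE), a 17.95-fold rise (edgeR adjusted p = 1.03e-30). DUSP6, the cytoplasmic phosphatase selective for ERK, went from 53.0 to 56.9 CPM (median 55.4) to 493 to 538 CPM (median 519). These ranges did not overlap either, and the log2 fold change of 3.23 ± 0.06 had the smallest adjusted p of the 10 genes (edgeR, 1.31e-41). DUSP5, a nuclear phosphatase that binds ERK, was at 35.7 to 41.04 CPM (median 37.9) in DMSO and at 153 to 182 CPM (median 164) in 4OHT. Its groups were separate, with a log2 fold change of 2.14 ± 0.11 (edgeR adjusted p = 1.63e-23).

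Both Sprouty genes rose by more than 5-fold. SPRY2 had 19.3 to 22.9 CPM (median 22.1) in DMSO siNT and 116 to 129.6 CPM (median 122) in 4OHT siNT, and SPRY4 had 48.7 to 54.9 CPM (median 50.5) and 273 to 308 CPM (median 293). Neither gene's groups overlapped. The log2 fold changes were 2.49 ± 0.11 for SPRY2 (edgeR adjusted p = 7.43e-25) and 2.51 ± 0.09 for SPRY4 (1.21e-29). The SPRED genes began higher and rose less. SPRED1 was at 80.6 to 93.6 CPM (median 88.9) in DMSO and 140.1 to 154 CPM (median 145) in 4OHT, a log2 fold change of 0.72 ± 0.12 (edgeR adjusted p = 7.93e-07). SPRED2 was at 78.1 to 85.1 CPM (median 81.9) and 169 to 184 CPM (median 176), a log2 fold change of 1.10 ± 0.10 (1.32e-13). All 4OHT siNT libraries exceeded all DMSO siNT libraries for both genes.

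The PEA3 factors parted. ETV4 rose from 17.6 to 21.3 CPM (median 20.8) to 60.9 to 66.2 CPM (median 63.9), without overlap, with a log2 fold change of 1.64 ± 0.09 (edgeR adjusted p = 1.00e-21). ETV5 had 84.4 to 91.7 CPM (median 86.5) in DMSO siNT and 82.8 to 89.1 CPM (median 84.7) in 4OHT siNT. These ranges overlapped, and the log2 fold change of -0.03 ± 0.08 did not pass the test (edgeR adjusted p = 0.740). PHLDA1 was the most abundant member and had the smallest change among the 9 that rose, from 721 to 757 CPM (median 735) to 965 to 1016 CPM (median 992), with a log2 fold change of 0.43 ± 0.04 (edgeR adjusted p = 3.19e-15).

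**Figure D1:**
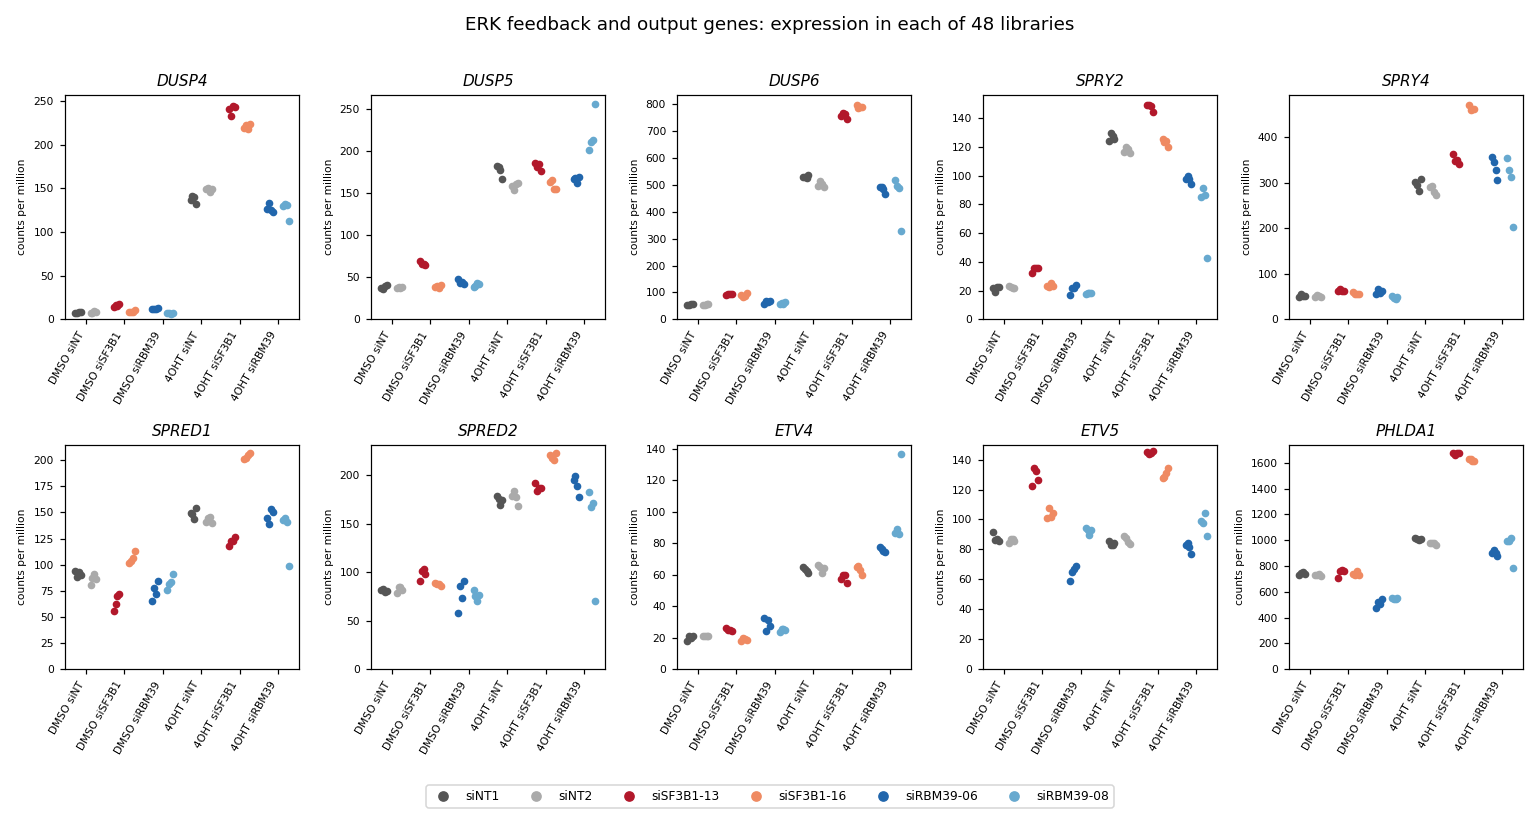
CPM of each of the 10 genes in all 48 libraries, on linear axes, by group and siRNA, with a point for each library. DUSP4 lies at 17.5 CPM or below in all DMSO libraries and at 113 CPM or above in all 4OHT libraries, whereas ETV5 overlaps between treatments in siNT, and 4OHT siRBM39-08 replicate 4 is the low point for DUSP6, SPRY2, SPRY4, SPRED1 and SPRED2 and the high point for ETV4.

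Per length, the order of the genes changed with RAS. On the deposited cRPKM scale (reads corrected for mappable length and library size), PHLDA1 led in DMSO siNT with a median level of 94.7, followed by ETV5 (21.6) and SPRED2 (20.4), whose ranges overlapped. DUSP5 (15.2), then DUSP6 (13.0) with SPRED1 (12.9), SPRY2 (10.9) with SPRY4 (10.5), ETV4 (9.03) and last DUSP4 (1.49) came after them, where genes joined by "with" had overlapping ranges. In 4OHT siNT, DUSP6 reached a median cRPKM of 121 and overlapped with PHLDA1 at 127. DUSP5 (66.0), SPRY4 (60.1) and SPRY2 (59.4) came next, each overlapping with its neighbour, ahead of SPRED2 (43.9), and ETV4 (27.6) overlapped with DUSP4 (26.9). ETV5 and SPRED1 (20.9) were at the bottom and overlapped. ETV5 thus went from among the 3 highest levels per length to among the 2 lowest while its own level changed little.

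The same comparison was then made in cells with each knockdown, which addresses whether RAS output depends on SF3B1 or RBM39. In siSF3B1 all 10 genes were higher in 4OHT than in DMSO (background 37.6% higher), and in siRBM39 also all 10 (background 39.1%). In siSF3B1 9 genes were without overlap (background 29.5%), and in siRBM39 8 were (background 17.3%). The 2-fold mark was passed by 8 genes in siSF3B1 (background 7.04%) and by 7 in siRBM39 (background 7.12%). The median log2 fold change of the members was 1.58 in siSF3B1 and 1.93 in siRBM39, beside 0.00 and 0.03 over all genes tested.

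The phosphatases rose with 4OHT in both knockdowns. DUSP4 lay between 8.90 and 17.5 CPM (median 12.2) in DMSO siSF3B1 and between 218 and 245 CPM (median 228) in 4OHT siSF3B1, a log2 fold change of 4.20 ± 0.14. In siRBM39 it went from 6.54 to 13.6 CPM (median 9.53) to 113 to 133 CPM (median 128), a log2 fold change of 3.71 ± 0.13. No DMSO library reached any 4OHT library in either knockdown. DUSP6 went from 83.9 to 96.4 CPM (median 93.5) to 746 to 797 CPM (median 778) in siSF3B1, and from 56.9 to 69.9 CPM (median 62.7) to 329 to 519 CPM (median 490.5) in siRBM39. Both changes were without overlap, at log2 3.07 ± 0.06 and 2.91 ± 0.06. DUSP5 went from 37.1 to 69.7 CPM (median 53.0) to 154 to 185 CPM (median 170.4) in siSF3B1 and from 38.2 to 47.9 CPM (median 42.2) to 161 to 255 CPM (median 185) in siRBM39, log2 1.69 ± 0.10 and 2.18 ± 0.11. The edgeR adjusted p-values of these 6 changes ranged from 6.41e-41 to 8.80e-20.

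The inhibitors of RAS-RAF signalling rose in both knockdowns as well. SPRY2 had log2 fold changes of 2.21 ± 0.11 in siSF3B1 and 2.14 ± 0.11 in siRBM39, and SPRY4 of 2.75 ± 0.09 and 2.54 ± 0.09. SPRED1 rose by 0.93 ± 0.12 and 0.82 ± 0.12 on the log2 scale, and SPRED2 by 1.13 ± 0.10 and 1.15 ± 0.10. SPRED2 overlapped in siRBM39, where its lowest 4OHT library, at 70.7 CPM, was the library that stood apart. Without that library the siRBM39 values were 2.24 for SPRY2, 2.61 for SPRY4, 0.88 for SPRED1 and 1.26 for SPRED2. ETV4 rose by 1.47 ± 0.09 and 1.71 ± 0.09 on the log2 scale, the latter 1.59 without that library. All 10 genes also passed in siRBM39 without it, with DUSP4 at 3.73, DUSP5 at 2.12, DUSP6 at 2.97 and PHLDA1 at 0.83 (background 79.6% in either direction). In the fit with that library, 75.5% of all genes passed in either direction and 39.1% were higher.

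ETV5, which did not pass the test with siNT, rose under both knockdowns by small amounts. It was at 101 to 134 CPM (median 115) in DMSO siSF3B1 and 127 to 146 CPM (median 139) in 4OHT siSF3B1, log2 0.24 ± 0.08 (edgeR adjusted p = 0.00389). In siRBM39 it was at 58.7 to 94.4 CPM (median 79.5) and 77.2 to 104 CPM (median 86.7), log2 0.18 ± 0.08 (adjusted p = 0.0260). The ranges overlapped in both, and without DMSO siRBM39-06 replicate 1 the siRBM39 value was 0.13 and no longer passed (edgeR adjusted p = 0.0896). PHLDA1 had 707 to 770.1 CPM (median 747) in DMSO siSF3B1 and 1615 to 1680.1 CPM (median 1648) in 4OHT siSF3B1. That is a log2 fold change of 1.15 ± 0.04, beside 0.43 ± 0.04 with siNT.

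**Figure D2:**
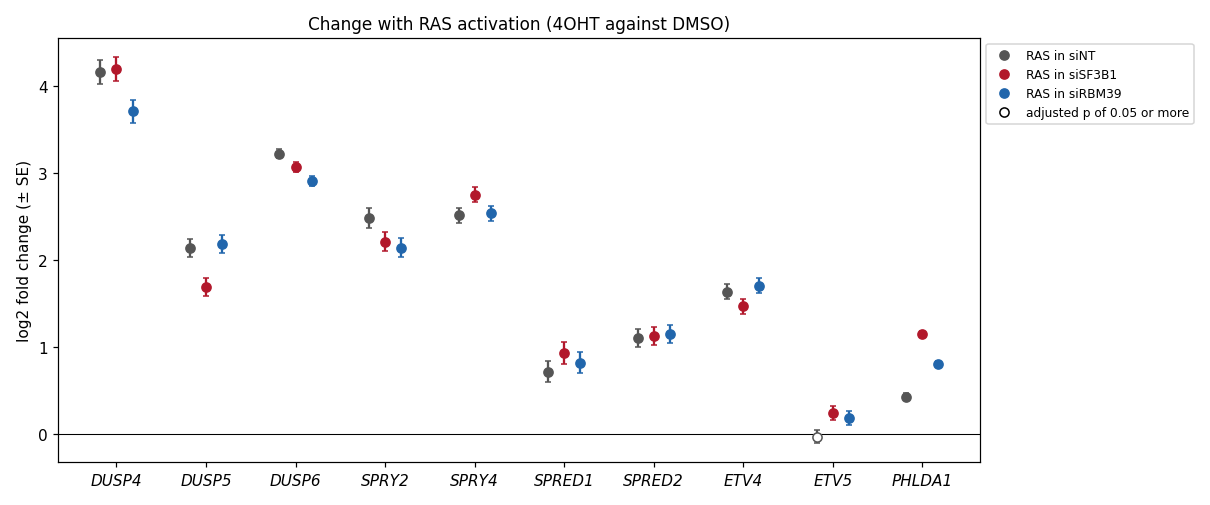
Log2 fold change of 4OHT against DMSO, with its SE, for each of the 10 genes in cells with siNT, siSF3B1 and siRBM39 (edgeR, 8 against 8 libraries each). DUSP4 is near 4 in all 3, PHLDA1 separates at 0.43, 1.15 and 0.80, and ETV5 stays near 0.

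The difference between these effects was tested as an interaction. For siSF3B1, 3 of the 10 genes passed (background 37.8% of all genes in either direction). PHLDA1 rose more in 4OHT with siSF3B1 than with siNT, by 0.72 ± 0.05 on the log2 scale (edgeR adjusted p = 9.41e-16). DUSP5 rose less, by a log2 difference of -0.45 ± 0.14 (0.0108). For ETV5 the difference was 0.27 ± 0.11 (0.0418), and this call was lost when any of the 4 replicate numbers was left out. For DUSP4, the gene with the widest response, the interaction was 0.03 ± 0.17 (edgeR adjusted p = 0.908). Without the library that stood apart, which enters this test through the shared estimate of the spread, 6 genes passed, with SPRY2, DUSP6 and SPRY4 added, and the share of all genes that passed was then 47%.

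For siRBM39, 2 of the 10 interactions passed (background 14.1%). PHLDA1 rose more, by 0.37 ± 0.05 on the log2 scale (edgeR adjusted p = 3.67e-07), and DUSP6 rose less, at -0.32 ± 0.07 (0.00198). DUSP4 had a difference of -0.46 ± 0.17 that did not pass (0.0702). Without the library that stood apart the same 2 genes passed, PHLDA1 at 0.40 (6.41e-10) and DUSP6 at -0.26 (0.000148), beside 25% of all genes. Both interactions subtract the same siNT libraries, so the values for siSF3B1 and siRBM39 are not independent of each other.

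Within each treatment, the knockdowns were compared with siNT. Knockdown of SF3B1 in DMSO cells raised 6 of the 10 genes (background 36.5% higher): DUSP4, DUSP5, DUSP6, SPRY2, SPRY4 and ETV5. The other 4 did not pass. In 4OHT cells it raised 5 (background 39.4% higher): DUSP4, DUSP6, SPRY4, ETV5 and PHLDA1, and these 5 were also the members without overlap (background 35.3%). The median log2 fold change of the members was 0.33 in DMSO and 0.35 in 4OHT, beside 0.02 and 0.03 over all genes tested.

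DUSP6 had the smallest adjusted p of the members in DMSO, with a log2 fold change of 0.74 ± 0.05 (edgeR adjusted p = 5.09e-17), and its range of 83.9 to 96.4 CPM lay above the 53.0 to 56.9 CPM of siNT. In 4OHT it was 0.59 ± 0.05 (5.11e-14), again without overlap. DUSP4 was 0.65 ± 0.13 in DMSO (1.36e-05), where the ranges overlapped, and 0.69 ± 0.12 in 4OHT (1.11e-06), where they did not. DUSP5 rose in DMSO by 0.47 ± 0.10 (6.42e-05), but in 4OHT its ranges overlapped and the log2 fold change was 0.02 ± 0.10. All values are from the edgeR fit over the 6 groups.

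SPRY4 rose by 0.25 ± 0.08 in DMSO (edgeR adjusted p = 0.00796) and 0.49 ± 0.08 in 4OHT (9.85e-07). It had 55.5 to 66.3 CPM (median 61.1) in DMSO siSF3B1 and 342 to 471 CPM (median 411) in 4OHT siSF3B1, and neither range overlapped with that of siNT. SPRY2 rose by 0.42 ± 0.11 in DMSO (0.000663), from a siNT median of 22.1 to a siSF3B1 median of 28.5 CPM, while in 4OHT its value was 0.15 ± 0.11 (0.197), with medians of 122 and 135 CPM. SPRED2 had 85.3 to 104 CPM in DMSO siSF3B1, all above siNT, yet its log2 fold change of 0.18 ± 0.10 did not pass (0.0998). SPRED1 and ETV4 passed in neither treatment.

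ETV5 is the member that SF3B1 knockdown moved while RAS in siNT cells did not. Its log2 fold change was 0.42 ± 0.08 in DMSO (edgeR adjusted p = 3.31e-06) and 0.69 ± 0.08 in 4OHT (2.94e-11), without overlap in either. PHLDA1 differed by treatment: 0.02 ± 0.04 in DMSO (0.680) and 0.73 ± 0.04 in 4OHT (2.95e-23). In 4OHT siSF3B1 every PHLDA1 value, from 1615 CPM up, was above the highest of the other groups, 1019 CPM. HRAS, the RAS gene in the fusion, also rose with siSF3B1 in 4OHT and, unlike PHLDA1, in DMSO. Its medians for DMSO and 4OHT were 518 and 879 CPM under siNT and 730 and 1651 CPM under siSF3B1. Its log2 fold changes with siSF3B1 were 0.50 in DMSO and 0.91 in 4OHT, and its interaction was 0.42 (edgeR adjusted p = 0.000605). Whether these counts include transcripts of the fusion, and their part in the members' values, was not tested.

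**Figure D3:**
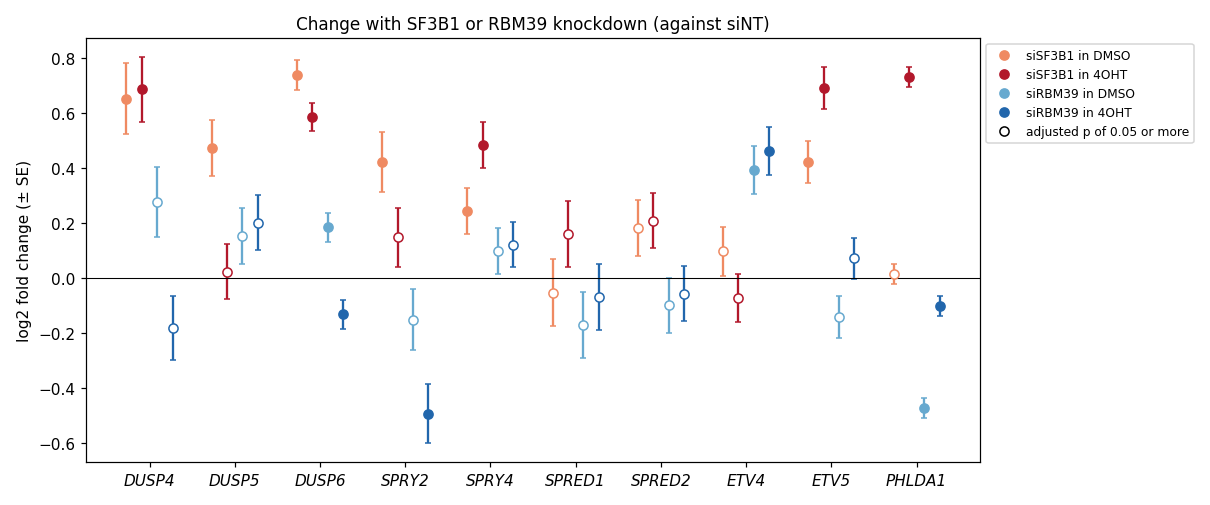
Log2 fold change of siSF3B1 and siRBM39 against siNT, with its SE, for each of the 10 genes in DMSO and in 4OHT cells (edgeR, 8 against 8 libraries). DUSP4, DUSP6, SPRY4 and ETV5 are raised by siSF3B1 in both treatments and PHLDA1 in 4OHT by 0.73, and ETV4 is raised by siRBM39 in both.

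Knockdown of RBM39 moved fewer members and in both directions. In DMSO cells 3 of the 10 passed (background 46.1% in either direction). ETV4 rose from a siNT range of 17.6 to 21.3 CPM to 23.7 to 32.6 CPM (median 25.5), log2 0.39 ± 0.09 (edgeR adjusted p = 0.000267), and DUSP6 rose by 0.19 ± 0.05 (0.00339). PHLDA1 fell from 721 to 757 CPM to 476 to 555 CPM (median 541), log2 -0.47 ± 0.04 (1.89e-15). None of these 3 ranges overlapped with siNT (background 20.5%). The member median was 0.00, beside 0.02 over all genes.

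In 4OHT cells 4 of the 10 passed (background 56.4% in either direction). ETV4 rose again, to 74.6 to 137 CPM (median 81.7), log2 0.46 ± 0.09 (edgeR adjusted p = 1.31e-05), and 3 fell (background 24.3%). SPRY2 had 42.4 to 99.6 CPM (median 92.6), all below siNT, log2 -0.49 ± 0.11 (0.000123). DUSP6 (-0.13 ± 0.05, 0.0294) and PHLDA1 (-0.10 ± 0.04, 0.0149) overlapped with siNT. Without the library that stood apart, SPRY2 was -0.39 (edgeR adjusted p = 6.34e-05), ETV4 0.34 (2.13e-05) and PHLDA1 -0.07 (0.0454). DUSP6 then no longer passed (0.0869), and SPRY4, at 0.19 (0.0146), did, beside 60.2% of all genes. The member median was -0.06 beside 0.05 over all genes.

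Set directly against each other, siSF3B1 and siRBM39 differed for 8 of the 10 genes in DMSO (background 67.7%) and for 8 in 4OHT (background 71.4%). In each treatment 7 genes were higher with siSF3B1 (background 33.6% in DMSO and 33.7% in 4OHT) and ETV4 was lower, by -0.30 ± 0.09 on the log2 scale in DMSO (edgeR adjusted p = 0.00317) and -0.53 ± 0.09 in 4OHT (5.06e-07). DUSP6 was higher with siSF3B1 by 0.55 ± 0.05 and 0.72 ± 0.05, PHLDA1 by 0.49 ± 0.04 and 0.83 ± 0.04, ETV5 by 0.56 ± 0.08 and 0.62 ± 0.08, SPRY2 by 0.57 ± 0.11 and 0.64 ± 0.11, and DUSP4 by 0.38 ± 0.13 and 0.87 ± 0.12. Without overlap in both treatments were DUSP6, ETV5 and PHLDA1. Without the library that stood apart the same 8 genes passed in 4OHT (76.2% of all genes), with ETV4 at -0.41, SPRY2 at 0.54 and SPRED2 at 0.15, against 0.27 with it. SPRED1 did not pass in either treatment.

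The siRNAs to the same target did not give the same values for all members. In a fit with a mean for each siRNA, chosen after seeing the data, siSF3B1-13 and siSF3B1-16 differed for 6 of the 10 genes in DMSO (background 37.3%) and for 4 in 4OHT (background 27.9%). SPRED1 showed opposite directions. In DMSO its mean was 65.0 ± 7.57 CPM (SD, n = 4) with siSF3B1-13 and 106 ± 5.04 CPM with siSF3B1-16, below and above the 88.7 CPM of siNT, and in 4OHT it was 122 ± 3.70 and 204 ± 2.77 CPM around 146 CPM. The siRNA difference was -0.71 and -0.74 on the log2 scale (edgeR adjusted p = 1.31e-09 and 7.85e-10), so that the small pooled value for SPRED1 is an average of a lower and a higher level.

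For DUSP5 in DMSO, siSF3B1-13 gave 64.8 to 69.7 CPM and siSF3B1-16 37.1 to 41.3 CPM, where siNT had 35.7 to 41.04. With siSF3B1-16 alone the log2 fold change of DUSP5 in DMSO was 0.03 and its interaction -0.13, and neither passed. SPRY2 behaved likewise, at 32.1 to 35.8 CPM with siSF3B1-13 and 22.5 to 24.95 CPM with siSF3B1-16, next to 19.3 to 22.9 CPM in siNT, and with siSF3B1-16 alone its log2 fold change of 0.10 did not pass. The same held for SPRY4 in DMSO, at 0.15. DUSP4 in DMSO was at 197% of the siNT mean with siSF3B1-13 and 117% with siSF3B1-16. DUSP6 and PHLDA1 did not pass the test between the siRNAs in either treatment, with log2 differences from -0.06 to 0.08.

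The siRBM39 siRNAs differed for 6 genes in DMSO (background 47.6%) and 5 in 4OHT (background 31.6%). ETV5 was lower with siRBM39-06 than with siRBM39-08 by -0.51 ± 0.04 in DMSO and -0.26 ± 0.04 in 4OHT, and DUSP4 was higher with siRBM39-06 in DMSO by 0.82 ± 0.07 (edgeR adjusted p = 1.95e-12). For siNT1 against siNT2 the smallest adjusted p of a member was 0.869 in DMSO (background 1.63%) and 0.260 in 4OHT (background 0.350%).

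Other genes of the pathway were read from lists. Of 20 further ERK target genes, 15 were tested, and with RAS in siNT 13 were higher and 2 lower, with a median log2 fold change of 1.51 (over all genes tested 39% were higher and 39.1% lower). The 3 with the largest rise were EREG, an EGFR ligand (4.65 ± 0.13), SPHK1, a sphingosine kinase (3.77 ± 0.25), and IER3, an immediate early gene (3.27 ± 0.07), and the 2 that fell were EGR1 (-0.97) and the ephrin receptor EPHA4 (-0.69). With siSF3B1 in 4OHT 4 of these rose (IER2, IER3, PLAUR and VGF), 6 fell and 5 did not pass (39.4% and 37.6% over all genes). The siSF3B1 interaction was higher for IER3 alone and lower for 7, with a median of -0.33 beside -0.01 over all genes. Over all genes 17.9% of these interactions were higher and 19.9% lower.

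Of 14 relatives in the same gene families 11 were tested. With RAS in siNT 7 rose: PHLDA2 (1.76), SPRED3 (1.52), DUSP1 (0.77), DUSP16 (0.59), DUSP14 (0.57), ETV1 (0.38) and DUSP7 (0.19), all as log2 fold changes. SPRY1, the Sprouty relative of SPRY2 and SPRY4, fell by 1.49, PHLDA3 by 0.40 and DUSP10 by 0.28. Thus the 2 Sprouty members and SPRY1 moved in opposite directions. Of 16 genes of the cascade itself, 4 were higher (MAP2K1 1.32, HRAS 0.77, GRB2 0.73 and EGFR 0.41), 6 were lower and 6 did not pass. For both lists the share over all genes tested was 39% higher and 39.1% lower.

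Across the 48 libraries the members followed a shared profile to different degrees. The Pearson correlation of log2 CPM with the mean profile of the other 9 members was 0.991 for DUSP6, 0.979 for SPRY4 and DUSP4, 0.973 for SPRY2, 0.948 for SPRED2, 0.934 for DUSP5, 0.878 for PHLDA1, 0.847 for ETV4, 0.828 for SPRED1 and 0.351 for ETV5. The libraries share their treatments, so these values describe the profile and carry no test. The 5 other genes with the profile most like the mean of the 10 were GPR177 (named WLS in current references) at 0.995, RNF152 at 0.994, CSGALNACT2 at 0.990, PFKFB3 at 0.989 and ERRFI1 at 0.988. ERRFI1 is itself a feedback inhibitor of EGFR, and GPR177 carries Wnt ligands to the cell surface. RefSeq promoter windows (GRCh38.p14, 250 bases before to 50 after a start) were at hand for 6 members, 9 windows in all. On either strand CCGGAAG was in 0 of the 9 (10.2% of all windows), TGACGTCA in 0 (1.84%) and TGANTCA in 1, that of SPRED2 (7.72%).

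Splicing of the members themselves was read from the deposited values of percent spliced in (PSI), the share of transcripts that include an exon or retain an intron. The members had 90 alternative exon and intron events in the tables, of which 34 were covered in all 48 libraries and 10 also passed the filters on range and balance. With RAS in siNT no member event passed limma with a change of at least 5 points (0 at an unadjusted p under 0.05, background 0.913%), and differences ran from -2.16 to 0.80 points. With siSF3B1, 1 event passed in DMSO (background 20.4%) and 3 in 4OHT (background 23.8%). With siRBM39, no event passed in DMSO (2 at an unadjusted limma p under 0.05, background 5.65%) and 1 in 4OHT (background 6.34%).

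These events lie in ETV5, SPRED1 and ETV4, and the exons are shown with their flanks, since all 3 are internal exons that were included in nearly all siNT transcripts. Sequences are from the GRCh37 reference, 5′ to 3′ on the gene's strand, with the bases of each event in capitals. The ETV5 stretch, at chr3:185823084-185823325 on the minus strand, holds exons 4 and 5 of 13, of 48 and 51 bases, both coding, with lengths that are multiples of 3. The SPRED1 stretch, at chr15:38616924-38617020 on the plus strand, holds exon 4 of 7, coding, with 47 bases, which leaves a remainder of 2 on division by 3. The ETV4 stretch, at chr17:41610545-41610756 on the minus strand, holds exon 7 of 13. The event covers 144 of the 162 annotated bases of this exon, and its other bases are left in lower case before the capitals.
ETV5 exons 4 and 5: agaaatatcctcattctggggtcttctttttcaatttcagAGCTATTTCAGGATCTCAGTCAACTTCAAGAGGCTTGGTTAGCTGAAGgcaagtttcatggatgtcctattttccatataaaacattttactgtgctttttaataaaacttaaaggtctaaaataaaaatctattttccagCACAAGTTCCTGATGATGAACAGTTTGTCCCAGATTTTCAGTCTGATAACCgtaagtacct
SPRED1 exon 4: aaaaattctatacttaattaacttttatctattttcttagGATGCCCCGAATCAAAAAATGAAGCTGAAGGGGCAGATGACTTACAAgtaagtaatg
ETV4 exon 7: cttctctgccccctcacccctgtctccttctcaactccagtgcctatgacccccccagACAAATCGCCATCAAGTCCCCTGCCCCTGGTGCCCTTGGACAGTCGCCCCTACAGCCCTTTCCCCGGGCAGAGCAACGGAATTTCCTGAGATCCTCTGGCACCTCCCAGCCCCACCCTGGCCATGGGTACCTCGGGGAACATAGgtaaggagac

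The 51-base exon of ETV5 had the largest change. It was included at 100% in all 16 siNT and all 16 siRBM39 libraries, and at 55.0 to 86.9% (median 72.2) in DMSO siSF3B1 and 54.1 to 78.5% (median 72.1) in 4OHT siSF3B1. No siSF3B1 library reached the level of any other. The difference from siNT was -26.6 points in DMSO and -30.0 points in 4OHT (limma adjusted p = 2.80e-24 and 2.09e-25), and the exact permutation test of 8 against 8 gave its smallest possible two-sided p of 0.000155 in each, or 0.00348 adjusted over 112 such tests. The limma p-values pool the spread over all groups, including those without any, and so do not measure the spread within siSF3B1. Only through its siSF3B1 libraries did this exon pass the range filter. Beside it, the 48-base exon of ETV5 was not among the events that passed the filters and is given after its values were seen. It fell from 100% in DMSO siNT to a mean of 81.7% in DMSO siSF3B1, and from 99.3% in 4OHT siNT to 71.4% in 4OHT siSF3B1, with exact permutation p = 0.000155 in both (adjusted 0.00348). In the printed stretch this exon is followed by gc, and the 20 bases before the 51-base exon hold 10 pyrimidines. There were 15 before each of the other exons, for ETV4 counted before the annotated exon of 162 bases and not before the capitals. The RNA level of ETV5 rose with siSF3B1 in both treatments, as given above.

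Exon 4 of SPRED1 was at 96.3 to 100% in 4OHT siNT, with a median of 100, and at 78.8 to 97.2% (median 89.7) in 4OHT siSF3B1. The ranges overlapped at their edges, and the difference was -10.5 points (limma adjusted p = 1.93e-08, exact permutation p = 0.000311, adjusted 0.00580). Only through its siSF3B1 libraries did this exon, too, pass the range filter, since every siNT and siRBM39 library was at 95.4% or above. In DMSO the difference of -4.29 points was under the 5-point limit, although its limma adjusted p was 0.000418. With siRBM39 the exon was at 100% in DMSO and at 95.4 to 100% in 4OHT. In siSF3B1 cells the exon was lower in 4OHT than in DMSO by -6.29 points (limma adjusted p = 0.0419, background 2.83%), which did not pass the exact permutation test after adjustment (p = 0.0204, adjusted 0.152). The mean went from 97.96 to 85.1% with siSF3B1-13 and from 92.7 to 93.0% with siSF3B1-16, and the limma call was lost with siSF3B1-16 alone and without replicate 2, 3 or 4.

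The ETV4 exon passed with both knockdowns in 4OHT. It was at 85.4 to 100% (median 100) in 4OHT siNT, 76.8 to 97.0% (median 83.7) in 4OHT siSF3B1 and 78.8 to 88.9% (median 83.2) in 4OHT siRBM39, so that all ranges overlapped. The differences were -11.6 points for siSF3B1 (limma adjusted p = 0.000260, exact permutation p = 0.00528, adjusted 0.0658) and -13.5 points for siRBM39 (0.000247, exact permutation p = 0.000622, adjusted 0.00995). Without the library that stood apart the latter was -13.2 points (limma adjusted p = 0.000591). In DMSO the differences went the same way, by -7.80 points for siSF3B1 (limma adjusted p = 0.113) and -7.87 points for siRBM39 (0.0673), and did not pass, and neither did the interactions (limma adjusted p = 0.546 and 1). The RNA level of ETV4 rose with siRBM39 and did not pass the test with siSF3B1.

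**Figure D4:**
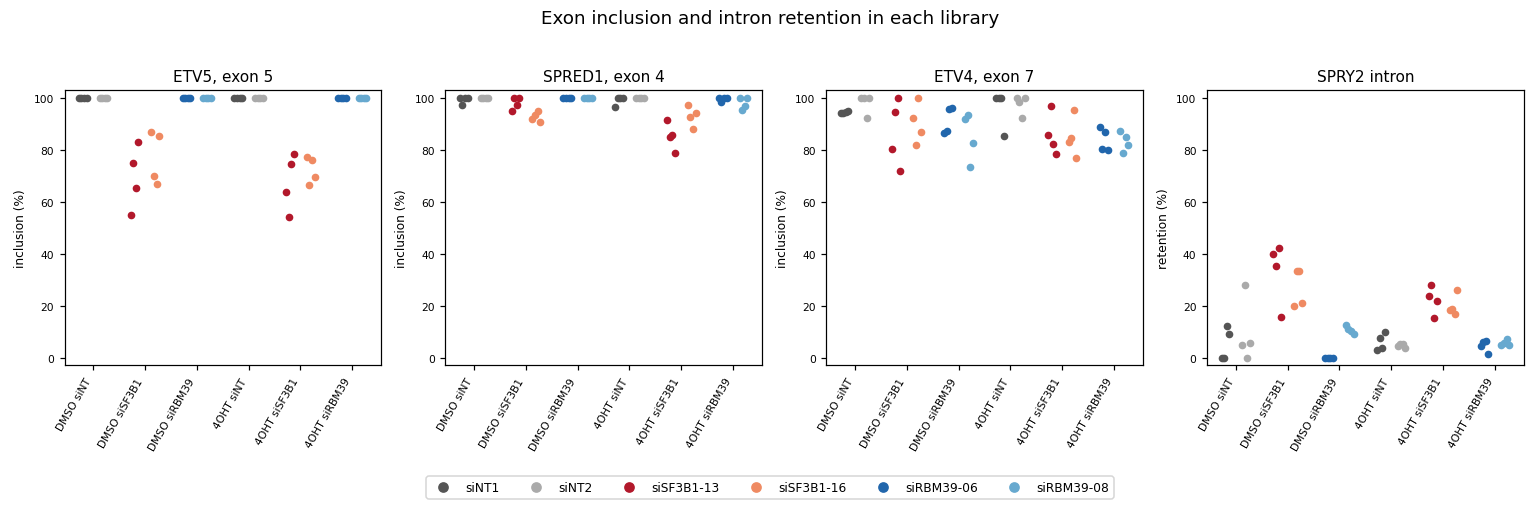
PSI in percent of exon 5 of ETV5 (51 bases), exon 4 of SPRED1 and exon 7 of ETV4, and of the SPRY2 intron, in each of the 48 libraries by group. The ETV5 exon is at 100% in siNT and siRBM39 and spreads between 54.1 and 86.9% in siSF3B1, and the SPRY2 intron is higher in siSF3B1 than in siNT.

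For members with no event past the filters, the event with the most reads is given. For SPRY2 this was the retention of its intron of 2865 bases, whose coverage was low, at 3 to 19 reads per library in DMSO siNT. Its PSI was 0 to 28% (median 5.16) in DMSO siNT, 15.8 to 42.2% (median 33.3) in DMSO siSF3B1, 2.86 to 9.73% (median 4.90) in 4OHT siNT and 15.1 to 28% (median 20.1) in 4OHT siSF3B1. The ranges overlapped in DMSO and not in 4OHT, and the exact permutation p was 0.00124 (adjusted 0.0174) and 0.000155 (adjusted 0.00348). In siRBM39 the means were 5.38 and 5.10%. For SPRY4 it was also an intron, with a mean of 25.01% ± 15.6 (SD, n = 8) in the DMSO siNT libraries against 9.71% ± 2.31 in those of 4OHT siNT, a difference of -15.3 points that did not pass after adjustment (exact permutation p = 0.00901, adjusted 0.0918). Coverage of this intron was low too, at 7.12 to 21.1 reads per library in DMSO siNT. Its balance p was under 0.05 in 16 of the 48 libraries, so its PSI is uncertain. The DUSP5 exon had group means of 98.6 to 100%, the DUSP4 intron of 0 to 1.05% and the PHLDA1 intron of 0.920 to 1.55%. The 18 introns of members with coverage in all libraries had group means of 0 to 3.92%, the highest in DUSP6.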

How the data were processed

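Poly(A) RNA of 48 libraries was captured and sequenced with Watchmaker kits, per the labels. The authors aligned and quantified reads with vast-tools against its human database (labels: hg19), and the labels also name edgeR and limma. Deposited were raw counts per gene, cRPKM (RPKM corrected for mappable length, computed by the authors) and percent spliced in (PSI, in percent) with quality strings that hold coverage scores and read numbers. The deposited table of normalised values was not used.

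Groups followed the titles. Of the libraries titled 4OHT siNT2, 4 carry a treatment tag of siNT1, which leaves the group unchanged. The study's methods give fewer replicates than the labels. The members, related gene lists and tests were chosen with earlier results of these data known.

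Counts were fitted with edgeR 4.0.16 (R 4.3.3): TMM scaling, 6 group means, genes with at least 10000 counts in total (9991 of 19847 rows, of which 338 hold no counts), quasi-likelihood F-test, Benjamini-Hochberg adjustment over all genes tested, call at 0.05. The SE is the log2 fold change divided by the square root of F. Levels are TMM-scaled CPM computed here from the deposited counts. The minimum total of 10000 is that of the study's methods.

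PSI was tested for cassette exons and retained introns scored VLOW or better for coverage in each of the 48 libraries, with a range of at least 5 points and an intron balance p of at least 0.05 (12921 events), with limma 3.58.1 on the logit of 0.01 + 0.98 times the fraction, and a call needed a change of at least 5 points. For 16 member events, exact two-sided permutation tests of 8 against 8 libraries were added, adjusted over 112 tests. Both fits were tested on simulated data. Coordinates in the event tables are those of GRCh38, so exons were matched to GRCh37 by gene, exon length and upstream intron length (for ETV4 and ETV5 also the downstream intron).

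Named genes are the 10 members, the siRNA targets, list genes where at most 5 moved in a direction (for other ERK targets the 3 largest rises and falls), family relatives, the 5 genes most correlated with the mean z-scored member profile, and member events past the filters or with the most reads. Alternatives were other tools (limma-voom, DESeq2 1.42.0), size factors, filters, thresholds, groups entered, single siRNAs, left-out replicates and a replicate block. No 2 libraries of an siRNA and treatment agreed within sampling noise (chi-square per degree of freedom at least 2.00 over 72 pairs).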

Additional observations from a re-analysis of the deposited data

Results flagged for a closer look

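In 60 tests of a gene in a group of 8 libraries, Dixon's test singled out 9 extreme libraries, where chance gives about 1 in 20. Of these, 6 were 4OHT siRBM39-08 replicate 4, which was lowest in its group for DUSP6 (329 CPM), SPRY2 (42.4 CPM), SPRY4 (203 CPM), SPRED1 (98.5 CPM) and SPRED2 (70.7 CPM) and highest for ETV4 (137 CPM). The other 3 were in DMSO siNT: SPRY2 at 19.3 CPM in siNT1 replicate 2, and ETV4 at 17.6 CPM and ETV5 at 91.7 CPM in siNT1 replicate 1.

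The response to 4OHT differed between siSF3B1 and siNT for DUSP5 (interaction -0.45 on the log2 scale), ETV5 (0.27) and PHLDA1 (0.72), and between siRBM39 and siNT for DUSP6 (-0.32) and PHLDA1 (0.37), all in edgeR.

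Single libraries also lay apart in PSI, mostly where the rest of the group was at or near 0 or 100%. For a DUSP6 exon this was 89.9% in DMSO siRBM39-08 replicate 2. For a rarely included SPRED1 exon it was 1.86% in DMSO siRBM39-06 replicate 2 and 4.98% in 4OHT siRBM39-08 replicate 2. For exon 4 of SPRED1 it was 97.1% in DMSO siNT1 replicate 2 and 96.3% in 4OHT siNT1 replicate 1, and for a further SPRED1 exon 97.0% in DMSO siNT2 replicate 1, 87.7% in 4OHT siSF3B1-13 replicate 4 and 98.6% in DMSO siRBM39-08 replicate 4. A second ETV4 exon had 95.2% in DMSO siNT1 replicate 2, 96.0% in 4OHT siNT1 replicate 4, 95.2% in DMSO siRBM39-08 replicate 4 and 97.2% in 4OHT siRBM39-06 replicate 4. The SPRED2 exon had 96.9% in DMSO siNT1 replicate 2, 95.4% in 4OHT siSF3B1-16 replicate 4, 93.9% in DMSO siRBM39-06 replicate 3 and 90% in 4OHT siRBM39-08 replicate 2. An ETV4 intron had 12.5% in DMSO siNT2 replicate 1, 8.57% in DMSO siRBM39-06 replicate 1 and 5.6% in 4OHT siRBM39-06 replicate 2.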

How the results depend on the processing

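Of 1980 fold changes recomputed under an alternative, 1843 kept their call or lack of a call, 45 lost the call and 80 gained it. A further 12 changed sign while called in the main or the alternative fit. Of 990 recomputed PSI differences 979 kept their call or lack of a call, 5 lost, 5 gained and 1 changed sign in this way. Changes of sign in values called in neither fit were not counted. Where a value moved, the cause was not tested. The number of members called moved as follows, with the share of all genes called in the same fit in brackets. With a 2-fold limit added it was 0 for both knockdowns in both treatments, for both interactions and for siSF3B1 against siRBM39 in both treatments (all genes 0.43 to 11.6%, and without that limit edgeR gave 6, 5, 3, 4, 3, 2, 8 and 8 members). With other groups kept out of the fit it was 8 for siSF3B1 in 4OHT (86.9%), 5 for siRBM39 in DMSO (48.3%) and 6 for the siSF3B1 interaction (56.1%). With a mean per siRNA it was 7 for siRBM39 in DMSO (57.2%), 7 for siRBM39 in 4OHT (65.4%), 5 for the siSF3B1 interaction (48.9%) and 5 for the siRBM39 interaction (27.8%). With siSF3B1-13 and siRBM39-06 alone it was 9 for siSF3B1 in 4OHT (84.2%), 8 for siRBM39 in DMSO (68.9%), 8 for the siSF3B1 interaction (55.4%) and 9 for the siRBM39 interaction (45.7%). With siSF3B1-16 and siRBM39-08 alone it was 5 for siRBM39 in DMSO (46.6%), 8 for siRBM39 in 4OHT (59.7%) and 5 for the siRBM39 interaction (26.6%). With siNT2 alone it was 2 for siRBM39 in 4OHT (41.3%) and 1 for each interaction (25.4% for siSF3B1 and 6.29% for siRBM39). Without 4OHT siRBM39-08 replicate 4, the siSF3B1 interaction had 6 (47%). limma-voom and DESeq2 stayed within 1.5 times the edgeR counts. Leaving out a replicate number gave 9 to 9 for RAS in siNT, 10 to 10 in siSF3B1 and 9 to 10 in siRBM39, 5 to 7 for siSF3B1 in DMSO and 5 to 6 in 4OHT, 2 to 3 for siRBM39 in DMSO and 3 to 4 in 4OHT, 1 to 2 and 2 to 2 for the siSF3B1 and siRBM39 interactions (the siSF3B1 count was 1 without replicate 2), and 7 to 8 for siSF3B1 against siRBM39 in each treatment.

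Signs changed with siSF3B1-16 and siRBM39-08 alone for SPRED1 with siSF3B1 in DMSO (0.25), DUSP4 (-0.19) and ETV5 (0.089) with siRBM39 in DMSO and DUSP5 in siSF3B1 against siRBM39 in DMSO (-0.061), and with siSF3B1-13 and siRBM39-06 alone for SPRED1 with siSF3B1 in 4OHT (-0.26), the interactions of DUSP4 with siSF3B1 (-0.23) and of DUSP5 (-0.22) and ETV4 (-0.23) with siRBM39, and siSF3B1 against siRBM39 for SPRED1 in DMSO (-0.21) and for DUSP5 (0.12), SPRED1 (-0.27) and SPRED2 (-0.029) in 4OHT. Exon 4 of SPRED1, RAS in siSF3B1, was at 0.265 points with siSF3B1-16 alone. Changes of sign in values called in neither the main nor the alternative fit are not listed.

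The count of member events called for RAS in siSF3B1 was 0 with a squeeze of 0.001, without the range filter and with siSF3B1-16 alone, and 0 to 1 with a replicate number left out. For siSF3B1 in DMSO it was 2 with siSF3B1-16 alone and 1 to 2 with a replicate left out, for siSF3B1 in 4OHT 3 to 3, for siRBM39 in DMSO 0 to 1, and for the siSF3B1 interaction 1 with siSF3B1-13 alone. A LOW coverage score in all libraries left 7131 events and none of the members, so it gave no value. The replicate block changed 1 call, the siSF3B1 interaction of ETV5 (edgeR adjusted p = 0.051), for a count of 2. No pairing by replicate number was seen: deviations of same-numbered libraries correlated from -0.906 to 0.811 (median 0.012, 264 pairs), and 12 of 48 libraries correlated best with their own number. Those of other-numbered libraries correlated from -0.906 to 0.936 (median 0.0009, 792 pairs). These correlations carry no test, and a culture or batch shared by some libraries cannot be told from them. The contrasts between siRNAs of a target, and the fits without DMSO siRBM39-06 replicate 1, were chosen after seeing the data. Low read numbers limit the PSI values, at 21 to 58 reads per library for the 51-base ETV5 exon.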
